A study of Mus musculus with 4 samples.

Results

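The genes described here are 8 heavy chains of mouse MHC class I (H2-K1, H2-D1, H2-Q4, H2-Q6, H2-Q7, H2-T22, H2-T23 and H2-M3), the light chain B2m and the transactivator Nlrc5. They were chosen by symbol, and all 10 were found among the 32285 genes of the deposited matrices. The 4 libraries came from pancreatic ductal adenocarcinomas grown from KPC46 organoids in B6/129 F1J mice, 2 mice given TAK-981 and 2 given the vehicle Cremophor. TAK-981 is an inhibitor of the SUMO-activating enzyme, and the comparison asks what blocking SUMOylation does to the cells of the tumour. Each library came from 1 tumour of 1 mouse, and all tumours were dissociated enzymatically, treated with a red cell lysis buffer and depleted of dead cells where viability was low. Dose, schedule and age were not given in the sources used here. KPC46 is 1 organoid line, so the tumour cells of all 4 mice share an origin, while the stromal and immune cells belong to the host.

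A class I molecule is a heavy chain paired with B2m, and it carries a peptide cut from the proteins of the cell to the cell surface. In mice H2-K1 and H2-D1 encode the classical heavy chains that CD8 T cells read, while the genes of the Q, T and M regions encode non-classical heavy chains with narrower roles, such as Qa-1 from H2-T23, which is read by receptors of NK cells. NLRC5 is a transactivator that works with the RFX proteins at the class I promoters, and interferon raises both the heavy chains and Nlrc5.

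The promoters are shown because the heavy chains and B2m share a set of short elements there. RefSeq windows of GRCm38.p6, from 250 bases before to 50 bases after the start of each gene, were listed for 9 of the 10 genes. The windows of H2-K1, H2-D1, H2-T23 and B2m are printed 5′ to 3′ on the strand of the gene, with capitals marking every match to a searched motif. H2-K1 lies on chromosome 17 (minus strand), and the window covers chr17:34000298-34000597. H2-D1 (plus strand) has the window chr17:35262844-35263143, H2-T23 (minus strand) the window chr17:36032652-36032951 and B2m, on chromosome 2 (plus strand), the window chr2:122147437-122147736.
H2-K1: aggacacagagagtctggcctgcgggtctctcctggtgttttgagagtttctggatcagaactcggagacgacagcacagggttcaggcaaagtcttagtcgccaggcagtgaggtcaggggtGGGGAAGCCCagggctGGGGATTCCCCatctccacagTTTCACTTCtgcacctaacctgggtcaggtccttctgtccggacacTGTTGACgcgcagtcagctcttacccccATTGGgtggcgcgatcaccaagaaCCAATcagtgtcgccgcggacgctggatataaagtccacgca
H2-D1: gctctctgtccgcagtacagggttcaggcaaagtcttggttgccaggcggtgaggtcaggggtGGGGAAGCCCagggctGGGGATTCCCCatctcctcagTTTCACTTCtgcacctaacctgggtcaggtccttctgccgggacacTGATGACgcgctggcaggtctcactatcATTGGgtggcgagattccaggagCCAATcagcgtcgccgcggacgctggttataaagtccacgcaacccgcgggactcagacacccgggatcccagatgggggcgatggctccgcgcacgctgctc
H2-T23: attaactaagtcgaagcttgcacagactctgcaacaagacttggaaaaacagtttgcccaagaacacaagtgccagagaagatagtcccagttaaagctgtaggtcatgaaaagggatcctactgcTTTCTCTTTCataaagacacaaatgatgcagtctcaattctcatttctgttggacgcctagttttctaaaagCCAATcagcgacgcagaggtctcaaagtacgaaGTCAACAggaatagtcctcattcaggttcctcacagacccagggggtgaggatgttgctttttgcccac
B2m: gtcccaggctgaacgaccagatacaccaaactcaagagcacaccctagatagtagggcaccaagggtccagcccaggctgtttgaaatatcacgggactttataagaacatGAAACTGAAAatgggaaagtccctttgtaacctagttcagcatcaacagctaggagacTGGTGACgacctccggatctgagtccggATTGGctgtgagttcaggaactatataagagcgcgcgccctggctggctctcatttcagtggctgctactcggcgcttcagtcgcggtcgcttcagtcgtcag

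The motifs were an interferon-response consensus (GAAA, any 2 bases, GAAA), its short form (GAA, any 2 bases, GAAA), a kappa B core (GGG, any 4 bases, CCC), an X box core (TGNTGAC) and a CCAAT box (CCAAT), each searched on both strands, with letters and spacing chosen with these sequences in view. Neither interferon form contains the other, and kappa B cores can overlap each other. Either interferon form was found in 9 of the 9 windows, against 10.4% of all 27025 windows. The longer form was in B2m, H2-T22 and H2-T23 (3.49% of all windows), and the short form was in the other 6 (7.56%). The kappa B core was found in 5 of 9, namely H2-K1, H2-D1, H2-Q4, H2-Q6 and H2-Q7, against 11.6% of all windows. An X box core was in 9 of 9 (14.2%) and a CCAAT box in 9 of 9 (37.9%). A forward X box core with a CCAAT box, in either orientation, 20 to 40 bases further on was in 7 of 9, against 0.385% of all windows. In those 7 the distance was 27 or 28 bases, and the 2 without the pair were H2-T22 and H2-T23. These matches describe the letters only.

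Per the GENCODE annotation of GRCm38, the 8 heavy chains lie on chromosome 17, from H2-K1 at chr17:33996017-34000347 to H2-M3 at chr17:37270220-37274484. B2m lies at chr2:122147686-122153083 and Nlrc5 at chr8:94434356-94527272. The libraries read the 3′ end of transcripts, and some of these ends are shared with other genes. Of the 90-base windows in the last 500 bases of the transcripts, 10.9 to 42.8% in H2-Q6 also occur in other genes, H2-Q7 among them. In H2-T22 the share is 26.0 to 26.5%, all with H2-T10. It is 13.4% in H2-T23, 9.49% in H2-Q4, at most 6.08% in H2-Q7 and at most 0.487% in H2-K1. No such window was shared in H2-D1, H2-M3, B2m or Nlrc5. Values of H2-Q6 and H2-T22 are therefore uncertain to that extent.

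After quality limits and doublet removal, 2214 and 3110 cells remained in the TAK-981 libraries and 4408 and 4130 in the vehicle libraries. Median depths were 5024.5 and 12831 UMIs per cell under TAK-981, against 2269 and 4152.5 in vehicle, and median mitochondrial shares were 6.90 and 5.11% under TAK-981, against 2.93 and 2.71% in vehicle. Pairs of libraries shared 1 to 10 cell barcodes. Cells were grouped without the 10 genes, and 6 classes had at least 15 cells in every library. Epithelial-like cells numbered 997 and 1967 under TAK-981 and 1040 and 2108 in vehicle, and macrophage or monocyte-like cells 753 and 511 under TAK-981 and 1357 and 718 in vehicle. T or NK-like cells numbered 69 and 146 under TAK-981, against 158 and 69 in vehicle, and fibroblast-like cells 76 and 104 under TAK-981, against 105 and 232 in vehicle. Endothelial-like cells numbered 38 and 15 under TAK-981, against 62 and 89 in vehicle, and neutrophil-like cells 38 and 30 under TAK-981, against 544 and 382 in vehicle. The epithelial-like class had keratin genes in every library (Krt8 at 1397 and 1555 CPM under TAK-981 and 1640 and 2175 CPM in vehicle). Epcam was near 0 in it, at 8.70 and 4.86 CPM under TAK-981, against 13.6 and 0 CPM in vehicle. Levels are given in CPM, the UMIs of a gene relative to the TMM-scaled UMI total of the class in that library.

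In 43 of the 51 member and class pairs that could be tested, both TAK-981 libraries lay above both vehicle libraries, and in 1 pair both lay below. Fold changes are on the log2 scale, TAK-981 over vehicle, each with the standard error (SE) of the edgeR quasi-likelihood fit, and a gene is called at a Benjamini-Hochberg adjusted p below 0.05 over all genes tested in the class. By that rule 2 pairs were called, both of them H2-T23, in fibroblast-like and in endothelial-like cells, both higher. The other 49 tested pairs were not called, and 39 of the 51 had an unadjusted p below 0.05. The remaining 9 pairs had too few UMIs to be tested. With n = 2 mice per group the p-values rest on the spread between 2 tumours.

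Counted by class, the members whose 2 TAK-981 libraries both lay above both vehicle libraries were set beside the share of all genes in that order. In macrophage or monocyte-like cells 10 of 10 tested members lay above, against 22.9% of all genes. In epithelial-like cells it was 8 of 10 (27% of all genes), in endothelial-like cells 8 of 8 (22.6%) and in fibroblast-like cells 7 of 8 (20.4%). In T or NK-like cells it was 7 of 10 (23.3%) and in neutrophil-like cells 3 of 5 (24.2%). The median log2 fold change of the tested members was 1.49 in macrophage or monocyte-like, 1.25 in epithelial-like, 1.82 in endothelial-like and 1.75 in fibroblast-like cells. It was 0.80 in T or NK-like and 1.37 in neutrophil-like cells, where the medians of all genes tested ran from -0.01 to 0.02 over the 6 classes. The members that passed the filter on low counts could do so through the TAK-981 libraries alone, so these counts describe the tested members and not all 10.

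No member was called in epithelial-like, macrophage or monocyte-like, T or NK-like or neutrophil-like cells by edgeR. The unadjusted p was below 0.05, with the higher level under TAK-981, for 7 of 10 tested members in epithelial-like cells (10.4% of all genes), 9 of 10 in macrophage or monocyte-like cells (5.58%), 5 of 10 in T or NK-like cells (6.06%) and 3 of 5 in neutrophil-like cells (7.46%). The same held for 8 of 8 in endothelial-like (7.86%) and 7 of 8 in fibroblast-like cells (3.97%). Among all genes 0.486% were called higher in epithelial-like, 0% in macrophage or monocyte-like, 0.0237% in T or NK-like and 0.0858% in neutrophil-like cells. DESeq2 called 6 members higher in epithelial-like cells, against 4.27% of the genes to which it gave an adjusted p, and 6 in macrophage or monocyte-like cells (0.412%). It called 0 in T or NK-like (0.734%) and neutrophil-like cells (0.411%). In the macrophage or monocyte-like class edgeR called 0 of 10453 genes in either direction, with 583 genes higher (5.58%) and 840 lower (8.04%) at an unadjusted p below 0.05.

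**Figure D1:**
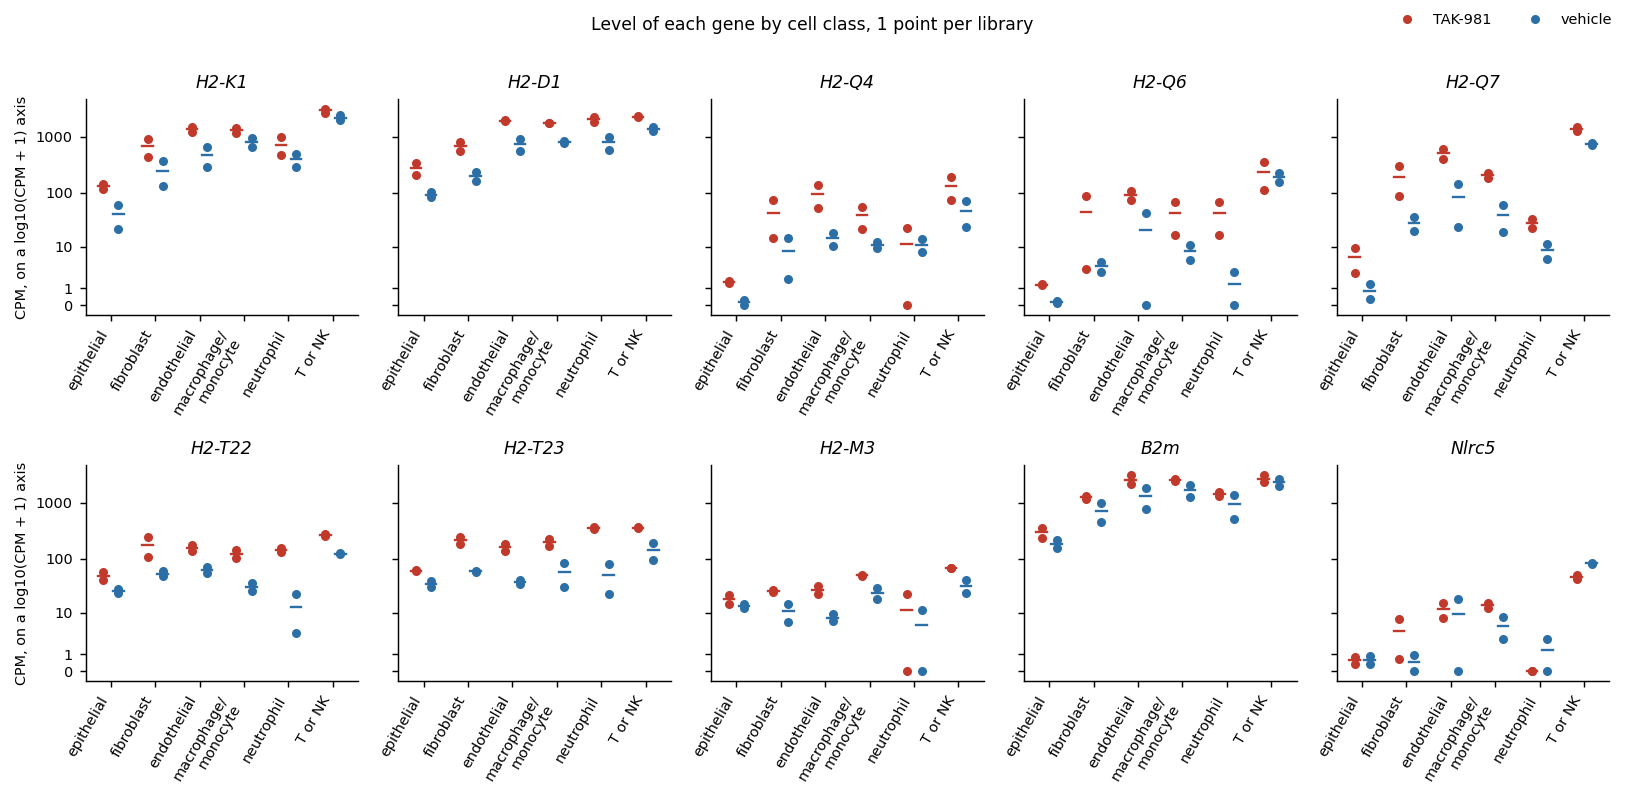
Level of each of the 10 genes in 6 cell classes, in CPM on a log10(CPM + 1) axis. Each point is 1 library (TAK-981 red, left; vehicle blue, right), and the bar is the mean of the 2 libraries. For H2-K1 the T or NK class is highest and the epithelial class lowest in both groups, and for Nlrc5 the T or NK class is the 1 class with both TAK-981 points below both vehicle points.

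The classical heavy chains H2-K1 and H2-D1 were detected in every class and library. H2-K1 had 142 and 117 CPM in epithelial-like cells under TAK-981, against 59.7 and 21.8 CPM in vehicle. Both TAK-981 libraries were higher, by 1.67 ± 0.47 (SE) on the log2 scale, and the call was missed (edgeR adjusted p = 0.122). Leaving out 1 library moved it between 1.105 (without vehicle 2, edgeR adjusted p = 0.211) and 2.55 (without vehicle 1, edgeR adjusted p = 0.0420), and 5 of 22 alternatives called it. In fibroblast-like cells H2-K1 had 439.6 and 914 CPM under TAK-981, against 362 and 132 CPM in vehicle (1.46 ± 0.52 SE, edgeR adjusted p = 0.358). In endothelial-like cells it had 1199 and 1487 CPM under TAK-981, against 653 and 289 CPM in vehicle (1.52 ± 0.42 SE, edgeR adjusted p = 0.103). The groups did not overlap in either class, and in fibroblast-like cells the TAK-981 1 library was close to the vehicle 1 library. In macrophage or monocyte-like cells H2-K1 had 1166 and 1408 CPM under TAK-981, against 933 and 646 CPM in vehicle (0.70 ± 0.29 SE, edgeR adjusted p = 0.353). In T or NK-like cells it had 2671 and 3150 CPM under TAK-981, against 2398 and 1945 CPM in vehicle (0.42 ± 0.35 SE, edgeR adjusted p = 0.651). The fold changes in these immune classes were smaller than in the stromal and epithelial classes, and the groups still did not overlap. In neutrophil-like cells the groups overlapped, with 466 and 969.5 CPM under TAK-981 and 489 and 292 CPM in vehicle.

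H2-D1 did not overlap between the groups in any of the 6 classes. In epithelial-like cells it had 341 and 209 CPM under TAK-981, against 100.2 and 83.2 CPM in vehicle (1.58 ± 0.30 SE, edgeR adjusted p = 0.0573). The p lies just above the threshold, and several settings put it below, as given with the composition of the class further on. Without TAK-981 2 the edgeR adjusted p was 0.0163, and without TAK-981 1, vehicle 1 or vehicle 2 it was 0.119, 0.113 and 0.211. In fibroblast-like cells H2-D1 had 561 and 801 CPM under TAK-981, against 234 and 161 CPM in vehicle (1.79 ± 0.35 SE, edgeR adjusted p = 0.0555). In endothelial-like cells it had 1941 and 1884 CPM under TAK-981, against 904 and 556 CPM in vehicle (1.39 ± 0.35 SE, edgeR adjusted p = 0.0741). Leaving out 1 library gave edgeR adjusted p of 0.0387 (without vehicle 1) to 0.285 (without TAK-981 1) in fibroblast-like cells. In endothelial-like cells H2-D1 was called without TAK-981 1 (0.0432), TAK-981 2 (0.0161) or vehicle 1 (0.0467), and without vehicle 2 the edgeR adjusted p was 0.503. In these fits 1 arm has a single library, which is assumed to vary like the other group. Macrophage or monocyte-like cells had 1714 and 1739 CPM under TAK-981, against 827 and 761 CPM in vehicle (1.12 ± 0.24 SE, edgeR adjusted p = 0.127). In T or NK-like cells H2-D1 had 2189 and 2347 CPM under TAK-981, against 1237 and 1477 CPM in vehicle (0.74 ± 0.34 SE, edgeR adjusted p = 0.371). Neutrophil-like cells had 1829.6 and 2255 CPM under TAK-981, against 999 and 572 CPM in vehicle (1.37 ± 0.46 SE, edgeR adjusted p = 0.244), from 38 and 30 cells under TAK-981. The neutrophil markers of that class summed to 35277 and 46199 CPM under TAK-981, against 106858 and 81508 CPM in vehicle, with 4 of 7 lower in both TAK-981 libraries and none at 0. Acinar markers in it summed to 3393 and 316 CPM under TAK-981, against 110.3 and 46.0 CPM in vehicle, with 5 of 8 higher in both. Their part in the values of the neutrophil-like class was not tested.

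Among the genes of the Q region, H2-Q7 had more UMIs than H2-Q4 and H2-Q6 in most classes. H2-Q7 in T or NK-like cells had 1260.5 and 1449 CPM under TAK-981, against 776 and 720.4 CPM in vehicle (0.85 ± 0.32 SE, edgeR adjusted p = 0.285). In endothelial-like cells it had 403 and 606 CPM under TAK-981, against 139.8 and 24.05 CPM in vehicle (2.66 ± 0.61 SE, edgeR adjusted p = 0.0592). The macrophage or monocyte-like class had 185 and 227 CPM under TAK-981, against 60.8 and 18.7 CPM in vehicle (2.34 ± 0.49 SE, edgeR adjusted p = 0.114). H2-Q7 was thus higher in both TAK-981 libraries in these 3 classes and called in none with all libraries. In endothelial-like cells 9 of 15 alternatives called it, and leaving out 1 library moved it between 1.78 (without vehicle 2, edgeR adjusted p = 0.160) and 4.30 (without vehicle 1, edgeR adjusted p = 7.97e-06). Fibroblast-like cells had 85.6 and 299 CPM under TAK-981, against 36.0 and 19.7 CPM in vehicle (2.82 ± 0.60 SE, edgeR adjusted p = 0.0777). In epithelial-like cells the level was low, with 9.62 and 2.68 CPM (198 and 160 UMIs) under TAK-981, against 1.35 and 0.273 CPM (16 and 5 UMIs) in vehicle. The small Epcam-led cluster (7 and 14 cells under TAK-981, 7 and 0 in vehicle) held 87 and 88 of these UMIs under TAK-981, against 11 and 0 in vehicle. H2-Q4 had 36 and 86 UMIs in epithelial-like cells under TAK-981, against 3 and 0 UMIs in vehicle, and H2-Q6 had 26 and 80 UMIs under TAK-981, against 2 and 2 UMIs in vehicle. The same cluster held 17 and 29 of the H2-Q4 UMIs under TAK-981, against 2 and 0 in vehicle, and 8 and 38 of the H2-Q6 UMIs under TAK-981, against 2 and 0 in vehicle. No fold change is given for these 2 genes, since the vehicle counts are at the floor. Outside the epithelial class, H2-Q6 overlapped between the groups in T or NK-like cells, with 109.6 and 357 CPM under TAK-981 and 158 and 228 CPM in vehicle. H2-Q4 overlapped in fibroblast-like cells, where TAK-981 1 had 14.5 CPM and vehicle 1 had 14.7 CPM.

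H2-T23, which encodes Qa-1, held the only 2 calls. In fibroblast-like cells it had 187 and 241 CPM under TAK-981, against 57.3 and 61.2 CPM in vehicle, and rose by 1.85 ± 0.31 (SE, log2; edgeR adjusted p = 0.0382). The call was 1 of 8 members tested there, against 0.256% of all genes tested in that class called higher. Leaving out any single library ended the call, with edgeR adjusted p of 0.212 without TAK-981 1, 0.113 without TAK-981 2, 0.0658 without vehicle 1 and 0.0988 without vehicle 2, while the log2 fold change stayed between 1.65 and 2.02. In endothelial-like cells H2-T23 had 187 and 137 CPM (83 and 17 UMIs) under TAK-981, against 41.9 and 34.4 CPM (9 and 10 UMIs) in vehicle, and rose by 2.12 ± 0.43 (SE, log2; edgeR adjusted p = 0.0357). Again 1 of 8 tested members was called, against 0.641% of all genes called higher. That call was kept without TAK-981 2 (edgeR adjusted p = 0.000125) and was lost without TAK-981 1 (0.0600), vehicle 1 (0.0528) or vehicle 2 (0.169), with log2 fold changes between 1.82 and 2.23. As above, the spread of the lone library in these fits is taken from the other group.

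By summed level, markers of macrophages were also higher under TAK-981 in the 2 classes with a call. Within the TAK-981 group of fibroblast-like cells the markers were higher in TAK-981 1, and H2-T23 was higher in TAK-981 2. The summed level of macrophage markers in fibroblast-like cells was 990.4 and 186 CPM under TAK-981, against 62.2 and 44.4 CPM in vehicle. Of these, 7 of 8 markers were higher in both TAK-981 libraries and none was at 0. In endothelial-like cells it was 1271 and 768 CPM under TAK-981, against 28.0 and 124 CPM in vehicle, with 3 of 8 markers higher in both. Of all genes, 20.4% in fibroblast-like and 22.6% in endothelial-like cells were higher in both TAK-981 libraries. Acinar markers summed to 164 and 104 CPM in fibroblast-like cells under TAK-981, against 13.1 and 6.91 CPM in vehicle. The sums were 367 and 113 CPM in endothelial-like cells under TAK-981, against 0 and 0 CPM in vehicle. Neutrophil markers summed to 154 and 311 CPM in fibroblast-like cells under TAK-981, against 67.2 and 68.1 CPM in vehicle, with 2 of 7 higher in both TAK-981 libraries. In endothelial-like cells they summed to 192 and 445 CPM under TAK-981, against 238 and 30.9 CPM in vehicle, with 3 of 7 higher in both and Retnlg at 0. H2-T23 in the macrophage or monocyte-like class itself was at 171 and 223 CPM under TAK-981, against 85.2 and 31.0 CPM in vehicle. The part of RNA from other cell types in the 2 calls was not tested.

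H2-T23 was not called in the other 4 classes. Epithelial-like cells had 62.4 and 59.7 CPM under TAK-981, against 30.9 and 39.4 CPM in vehicle (0.79 ± 0.22 SE, edgeR adjusted p = 0.124). T or NK-like cells had 352 and 370.3 CPM under TAK-981, against 193 and 96.1 CPM in vehicle (1.25 ± 0.38 SE, edgeR adjusted p = 0.197). Neutrophil-like cells had 366 and 338 CPM (22 and 15 UMIs) under TAK-981, against 79.2 and 23.02 CPM (28 and 6 UMIs) in vehicle (2.72 ± 0.59 SE, edgeR adjusted p = 0.133), in the class whose neutrophil markers were lower and acinar markers higher under TAK-981. The groups did not overlap in any class. H2-T22, whose product is a ligand of some gamma delta T cells, also did not overlap in any class. It had 104 and 143 CPM in macrophage or monocyte-like cells under TAK-981, against 35.7 and 26.0 CPM in vehicle (1.98 ± 0.27 SE, edgeR adjusted p = 0.0567). In epithelial-like cells it had 57.9 and 41.3 CPM under TAK-981, against 23.6 and 28.8 CPM in vehicle (0.92 ± 0.26 SE, edgeR adjusted p = 0.124). H2-M3, which presents formylated peptides, overlapped in epithelial-like cells, with 21.7 and 14.9 CPM under TAK-981 and 15.0 and 12.2 CPM in vehicle. The macrophage or monocyte-like class had 51.6 and 49.4 CPM under TAK-981, against 29.2 and 18.7 CPM in vehicle (1.05 ± 0.27 SE, edgeR adjusted p = 0.166).

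B2m, the light chain shared by the heavy chains, had smaller fold changes than H2-D1 in each of the 6 classes, and the difference between the 2 genes was not tested. In epithelial-like cells it had 355 and 237 CPM under TAK-981, against 213 and 157 CPM in vehicle (0.68 ± 0.29 SE, edgeR adjusted p = 0.251). In fibroblast-like cells it had 1161 and 1320.2 CPM under TAK-981, against 988 and 460.0 CPM in vehicle (0.78 ± 0.41 SE, edgeR adjusted p = 0.586). In endothelial-like cells it had 2126 and 3056 CPM under TAK-981, against 1855 and 776 CPM in vehicle (0.98 ± 0.44 SE, edgeR adjusted p = 0.305). In these 3 classes vehicle 2 was the lowest library and the groups did not overlap. Macrophage or monocyte-like cells had 2417 and 2697 CPM under TAK-981, against 2091 and 1276 CPM in vehicle (0.60 ± 0.32 SE, edgeR adjusted p = 0.455). The groups overlapped in T or NK-like cells, with 2310.3 and 3088 CPM under TAK-981 and 2649 and 1957 CPM in vehicle. They also overlapped in neutrophil-like cells, with 1563 and 1330.3 CPM under TAK-981 and 1378 and 510.3 CPM in vehicle.

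The fold change of Nlrc5 did not have the same sign in each class where it was tested, and it was called in none. In T or NK-like cells, the class in which it was highest, it had 51.9 and 43.7 CPM (18 and 23 UMIs) under TAK-981, against 81.7 and 84.0 CPM (14 and 7 UMIs) in vehicle. Both TAK-981 libraries were lower, by a log2 fold change of -0.80 ± 0.43 (SE, edgeR adjusted p = 0.466), and 21.9% of all genes tested in the class lay in that order. In macrophage or monocyte-like cells it had 12.4 and 15.5 CPM (65 and 73 UMIs) under TAK-981, against 8.21 and 2.73 CPM (32 and 6 UMIs) in vehicle. Here both TAK-981 libraries were higher (1.24 ± 0.45 SE, edgeR adjusted p = 0.305). The difference between these 2 effects, macrophage or monocyte-like minus T or NK-like, was 2.04 ± 0.93 (SE, log2) in the joint fit and was not called (edgeR adjusted p = 1). In epithelial-like cells Nlrc5 had 0.826 and 0.369 CPM (17 and 22 UMIs) under TAK-981, against 0.845 and 0.382 CPM (10 and 7 UMIs) in vehicle. The fitted difference there was -0.05 ± 0.74 (SE, log2; edgeR adjusted p = 0.980), so a difference was not detectable at this depth. Neutrophil-like cells held 0 and 0 UMIs of Nlrc5 under TAK-981, against 1 and 0 UMIs in vehicle. Fibroblast-like cells held 1 and 12 UMIs under TAK-981, against 0 and 1 in vehicle, and endothelial-like cells 7 and 1 under TAK-981, against 4 and 0 in vehicle.

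**Figure D2:**
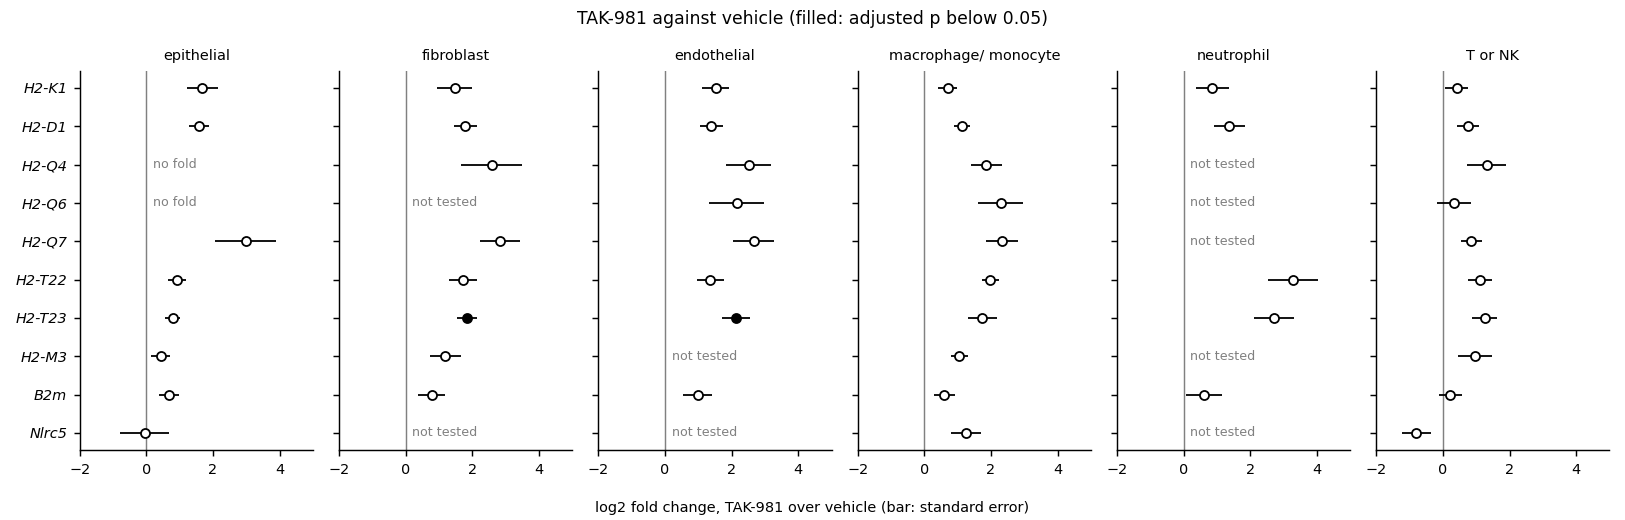
Log2 fold change of TAK-981 over vehicle for each gene, 1 panel per cell class. Points are edgeR estimates and bars their standard errors, and filled points have an adjusted p below 0.05 (H2-T23 in fibroblast-like and endothelial-like cells). All estimates except those of Nlrc5 in epithelial-like and T or NK-like cells lie above 0, and pairs with too few UMIs are marked.

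By mean level, H2-K1 and B2m put the classes in the same order within each group. Mean H2-K1 under TAK-981 was 2911 CPM in T or NK-like, 1343 in endothelial-like, 1287 in macrophage or monocyte-like, 718 in neutrophil-like, 677 in fibroblast-like and 129 in epithelial-like cells. In vehicle it was 2171 CPM in T or NK-like, 789 in macrophage or monocyte-like, 471 in endothelial-like, 391 in neutrophil-like, 247 in fibroblast-like and 40.7 in epithelial-like cells. Under TAK-981 the neighbours that overlapped were endothelial-like with macrophage or monocyte-like and neutrophil-like with fibroblast-like cells, and in vehicle the 4 classes between the highest and the lowest formed a chain in which each overlapped its neighbour. T or NK-like cells stood 22.5-fold above epithelial-like cells in H2-K1 under TAK-981 and 53.3-fold in vehicle. For B2m the ratio was 9.12 under TAK-981 and 12.4 in vehicle, and for H2-D1 it was 8.25 under TAK-981 and 14.8 in vehicle.

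The genes of the T and M regions had flatter profiles. H2-T23 was 5.92-fold higher in T or NK-like than in epithelial-like cells under TAK-981 and 4.10-fold higher in vehicle. H2-M3 was 3.75-fold higher under TAK-981 and 2.38-fold higher in vehicle. In vehicle H2-T23 levels overlapped between neighbours from fibroblast-like cells (59.3 CPM) down to epithelial-like cells (35.2 CPM). Nlrc5 averaged 47.8 CPM under TAK-981 and 82.9 CPM in vehicle in T or NK-like cells. It averaged 13.9 CPM under TAK-981 and 5.47 CPM in vehicle in macrophage or monocyte-like cells, in endothelial-like cells 11.9 CPM under TAK-981 and 9.32 CPM in vehicle, and in epithelial-like cells 0.598 CPM under TAK-981 and 0.614 CPM in vehicle. Its vehicle levels overlapped between all neighbours below the T or NK-like class.

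Whether the effect of TAK-981 differed between classes was tested for each class against the epithelial-like class, in a joint fit with library as a block. None of the 10 members was called in any of the 5 contrasts by edgeR, where 0.408% of all genes were called for endothelial-like, 0.408% for fibroblast-like and 1% for macrophage or monocyte-like cells. The share was 0.651% for neutrophil-like and 0.0777% for T or NK-like cells. The unadjusted p was below 0.05 for 1 member in the endothelial-like contrast (10.1% of all genes), 1 in the fibroblast-like (6.69%), 3 in the macrophage or monocyte-like (10.4%), 4 in the neutrophil-like (12.1%) and 3 in the T or NK-like contrast (9.71%). The lowest adjusted p of any member was that of H2-K1 in the neutrophil-like contrast, with a log2 difference of -1.54 ± 0.47 (SE, edgeR adjusted p = 0.147), where the median of all genes was itself -0.74. In the T or NK-like contrast the H2-K1 difference was -1.42 ± 0.44 (SE, edgeR adjusted p = 0.285). For the macrophage or monocyte-like contrast the H2-K1 difference was -1.20 ± 0.43 (SE, edgeR adjusted p = 0.268). The sizes of effect that differ between the classes in the account above are therefore not shown to differ.

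The epithelial-like class did not hold the same clusters in both groups. A cluster led by Prl, Cited1 and Gm16178 had 25 and 70 cells under TAK-981, against 205 and 1280 in vehicle. A cluster led by Crct1, Hspb1 and Chac1 had 168 and 907 cells under TAK-981, against 68 and 27 in vehicle. A cluster led by Alb, Ambp and Hp had 279 and 120 cells under TAK-981, against 12 and 1 in vehicle. Alb, Ambp, Hp, Agt and Ttr among its leading genes are known as liver genes. None of its 10 leading genes is a listed epithelial marker, and its name rests on 6 such markers detected in its cells. Apart from the Epcam-led cluster, the other epithelial clusters also had no listed marker among their leading genes. Their names rest on 3 to 6 markers detected. A cluster led by Tff1, Tff2 and Fabp1 had 13 and 370 cells under TAK-981, against 2 and 1 in vehicle. The cluster led by mitochondrial genes (mt-Atp8 first) had 412 and 231 cells under TAK-981, against 264 and 234 in vehicle. Its median depth was 2004 UMIs, with 3 epithelial markers detected. The shares of cells given further on include it and were not run without it. Within the Crct1-led cluster H2-K1 was at 188 and 129 CPM under TAK-981, against 96.6 and 34.9 CPM in vehicle (CPM by library totals, without TMM). Within the Prl-led cluster H2-K1 was at 14.8 and 58.9 CPM under TAK-981, against 43.8 and 17.4 CPM in vehicle. There the groups overlapped, but the value of TAK-981 1 was 1 UMI from 25 cells. H2-D1 did not overlap in that cluster, at 148 and 131 CPM (10 and 49 UMIs) under TAK-981, against 64.9 and 62.9 CPM in vehicle. B2m did not overlap either, at 207 and 185 CPM under TAK-981, against 153 and 116 CPM in vehicle. The differences between clusters were described and not tested.

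Clusters were left out or taken alone as alternatives chosen after the data had been seen. The cluster led by Prl3d2, Hist2h2bb and Olfr889, called here the replication histone cluster, had 84 and 250 cells under TAK-981, against 469 and 411 in vehicle. In it alone H2-K1 was at 64.5 and 60.2 CPM under TAK-981, against 38.8 and 23.998 CPM in vehicle. B2m was at 179 and 135 CPM under TAK-981, against 187 and 174 CPM in vehicle (-0.20 ± 0.27 SE, edgeR adjusted p = 0.713). H2-T23 was at 21.5 and 27.7 CPM under TAK-981, against 26.6 and 35.0 CPM in vehicle (-0.31 ± 0.29 SE, edgeR adjusted p = 0.586). The groups overlapped for both genes, and these values use TMM. By library totals B2m was at 210 and 154 CPM under TAK-981, against 157 and 155 CPM in vehicle. H2-T23 was then at 25.2 and 31.4 CPM under TAK-981, against 22.4 and 31.0 CPM in vehicle. In the whole class the fold changes of B2m and H2-T23 were positive. Without the Alb-led cluster H2-D1 was at 306 and 202 CPM under TAK-981, against 98.7 and 82.7 CPM in vehicle (1.48 ± 0.28 SE, edgeR adjusted p = 0.0498, called, with 0.626% of all genes called higher). It was also called without the cluster led by mitochondrial genes (edgeR adjusted p = 0.0498; 0.699% of all genes) and without the Epcam-led cluster (edgeR adjusted p = 0.0493; 0.861% of all genes).

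**Figure D3:**
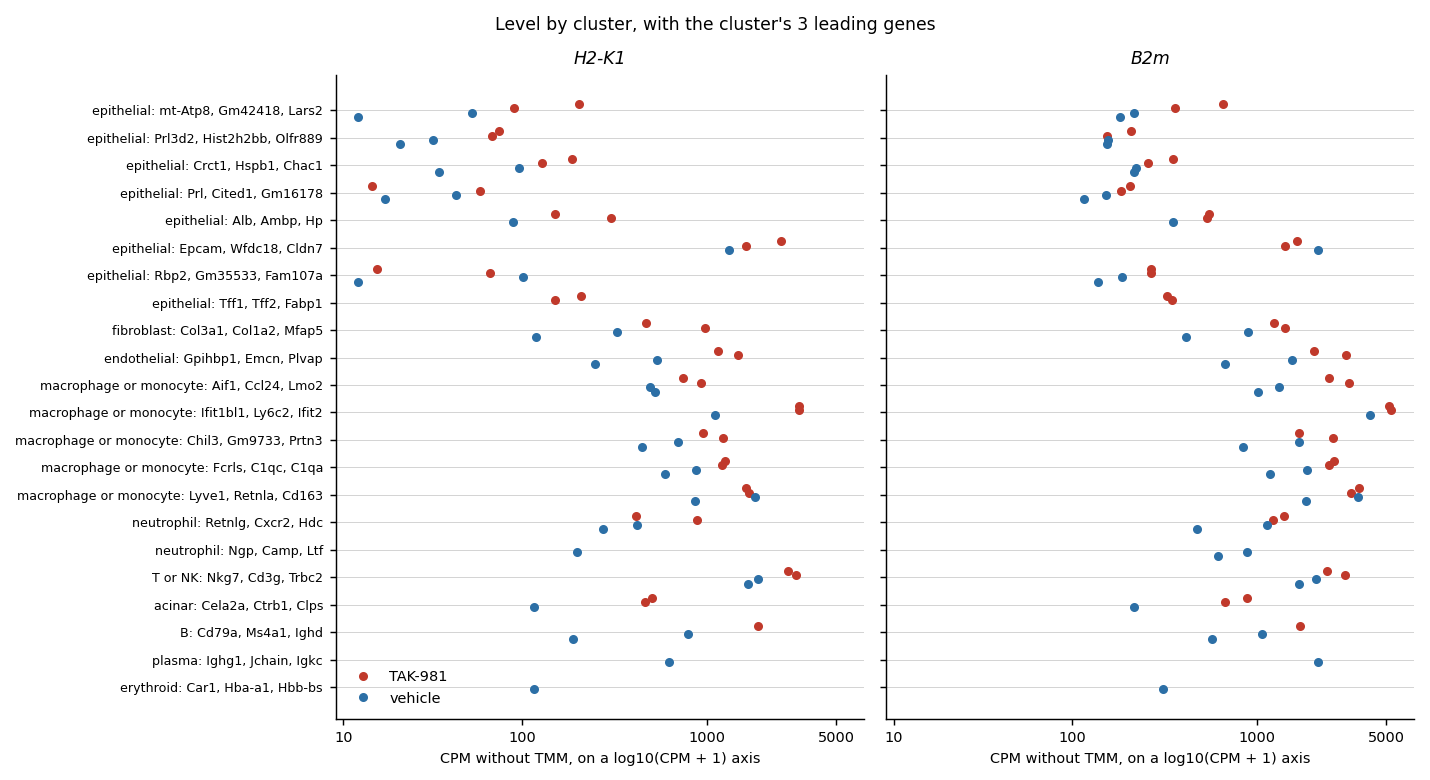
H2-K1 (left) and B2m (right) by cluster, in CPM by library totals on a log10(CPM + 1) axis, with the 3 leading genes of each cluster. Points are libraries (TAK-981 red, drawn above vehicle blue); unnamed clusters, and libraries with too few cells in a cluster, are left out. The Epcam-led cluster is the highest of the epithelial clusters for both genes. In the Prl-led cluster the H2-K1 points of the groups overlap (1 UMI in TAK-981 1), and the B2m points do not.

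The macrophage or monocyte-like class also held different clusters in the groups. A cluster led by Chil3, Gm9733 and Prtn3 had 32 and 66 cells under TAK-981, against 571 and 104 in vehicle, and a cluster led by Aif1, Ccl24 and Lmo2 had 316 and 41 cells under TAK-981, against 114 and 43 in vehicle. The largest, led by Fcrls, C1qc and C1qa, had 377 and 283 cells under TAK-981, against 609 and 506 in vehicle. In it alone, an alternative chosen after the data had been seen, H2-T22 had a log2 fold change of 1.48 ± 0.23 (SE, edgeR adjusted p = 0.0514), against 1.98 in the whole class. H2-Q7 had 2.04 ± 0.41 (SE, edgeR adjusted p = 0.0955), against 2.34, and H2-D1 1.01 ± 0.26 (SE, edgeR adjusted p = 0.160), against 1.12. Acinar markers in the whole class summed to 392.025 and 179 CPM under TAK-981, against 39.5 and 33.7 CPM in vehicle, with 8 of 8 higher in both TAK-981 libraries, and their part in the members' values was not tested.

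Macrophage RNA in the epithelial-like sums was also higher under TAK-981. Macrophage markers summed to 476 and 54.3 CPM in epithelial-like cells under TAK-981, against 23.8 and 24.9 CPM in vehicle, with 7 of 8 markers higher in both TAK-981 libraries and none at 0. Neutrophil markers summed to 97.8 and 43.3 CPM under TAK-981, against 20.03 and 23.8 CPM in vehicle (5 of 7 higher), and acinar markers to 112 and 55.2 CPM under TAK-981, against 20.1 and 5.94 CPM in vehicle (8 of 8). T or NK markers summed to 10.1 and 6.12 CPM under TAK-981, against 11.5 and 14.5 CPM in vehicle, with Ncr1 at 0. Of these 9 markers, 4 were higher in both TAK-981 libraries and 1 was lower in both. Scaled by the macrophage markers, macrophage RNA made up 2.12 and 0.255% of the epithelial-like sums under TAK-981, against 0.165 and 0.120% in vehicle. At that share it would supply 39.6 of the 415 CPM of H2-D1 (by library totals) in TAK-981 1 and 4.84 of the 245 CPM in TAK-981 2. With it subtracted, the H2-D1 fold change was 1.53 (edgeR adjusted p = 0.0527), that of H2-K1 was 1.59 and that of B2m was 0.59.

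Epithelial-like cells without a UMI of any macrophage or neutrophil marker, 401 and 884 under TAK-981 and 752 and 1647 in vehicle, were fitted alone. H2-Q6 overlapped in them, with 1 and 35 UMIs under TAK-981, against 2 and 1 UMIs in vehicle, while in the whole class it did not. H2-Q4 had 1 and 33 UMIs under TAK-981, against 0 and 0 UMIs in vehicle, and H2-Q7 6 and 79 UMIs under TAK-981, against 7 and 3 UMIs in vehicle. For H2-D1, H2-K1 and B2m both TAK-981 libraries stayed above both vehicle libraries. In these cells H2-D1 had 291 and 207 CPM under TAK-981, against 95.7 and 82.9 CPM in vehicle, and was called higher (1.48 ± 0.26 SE, edgeR adjusted p = 0.0292), with 0.958% of all genes called higher. H2-K1 had 96.2 and 120.6 CPM under TAK-981, against 56.6 and 22.4 CPM in vehicle (1.47 ± 0.42 SE, edgeR adjusted p = 0.109). B2m had 338 and 255 CPM under TAK-981, against 217 and 158 CPM in vehicle (0.66 ± 0.27 SE, edgeR adjusted p = 0.240). The fold changes in all epithelial-like cells were 1.58, 1.67 and 0.68 for the same 3 genes. Mitochondrial shares and depth also differed between the groups, and their part in the members' values was not tested beyond the alternatives named.

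**Figure D4:**
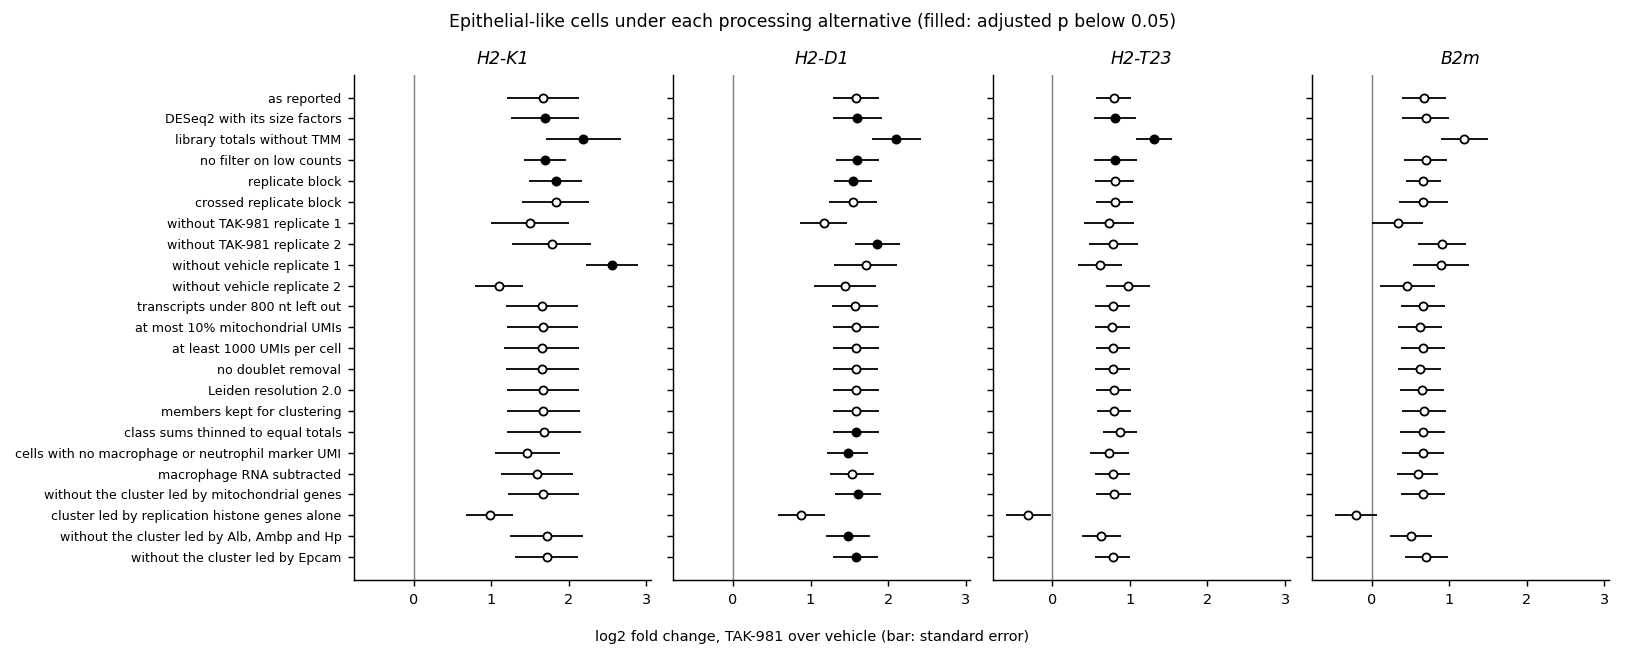
Log2 fold change of TAK-981 over vehicle in epithelial-like cells for H2-K1, H2-D1, H2-T23 and B2m under each processing alternative. Points are estimates, bars standard errors, and filled points have an adjusted p below 0.05. H2-K1 and H2-D1 stay above 0 under each alternative drawn, while H2-T23 (-0.31) and B2m (-0.20) lie below 0 in the cluster led by replication histone genes alone.

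The share of cells with a UMI of any of the 8 heavy chains was compared at equal depth, with each cell thinned to 1000 UMIs. In epithelial-like cells it was 44.5% (Clopper-Pearson 95% interval 41.0 to 48.1) and 34.8% (32.7 to 37.0) under TAK-981, against 19.4% (17.01 to 22.1) and 14.2% (12.7 to 15.7) in vehicle. Cells deep enough numbered 777 and 1903 under TAK-981 and 977 and 2028 in vehicle. The means were 39.7% ± 6.85 under TAK-981 and 16.8% ± 3.74 in vehicle (SD, n = 2 each), a difference of 22.9 points (exact permutation test, two-sided, p = 0.333). That is the smallest p that 2 against 2 libraries allow. Free RNA adds UMIs to cells that do not make a gene, and Lyz2, a macrophage gene, was found in 11.6 and 2.05% of the same cells under TAK-981, against 0.819 and 1.13% in vehicle. The share with any of the 8 heavy chains exceeded the share with Lyz2 alone in each library. That sets 8 genes against 1, so it does not bound the part of free heavy chain RNA. B2m was found in 37.2 and 25.9% of epithelial-like cells under TAK-981, against 16.9 and 12.6% in vehicle. H2-K1 alone was found in 11.97 and 11.98% under TAK-981, against 5.02 and 2.32% in vehicle. In TAK-981 1 the H2-K1 share was thus close to the Lyz2 share of 11.6%.

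In the other classes the heavy chain share was nearer to all cells. It averaged 92.0% under TAK-981 and 58.6% in vehicle in endothelial-like cells, 70.8% under TAK-981 and 44.6% in vehicle in fibroblast-like cells, and 85.9% under TAK-981 and 59.1% in vehicle in neutrophil-like cells. It averaged 90.8% under TAK-981 and 74.2% in vehicle in macrophage or monocyte-like cells. Each of these 4 differences had the TAK-981 libraries above the vehicle libraries, at the same smallest exact permutation p of 0.333. Few neutrophil-like cells of the vehicle libraries were deep enough, 66 of 544 and 44 of 382, against 31 of 38 and 25 of 30 under TAK-981. The vehicle share of that class thus describes its deepest cells only. In T or NK-like cells the libraries overlapped, with 97.01 and 100% under TAK-981 and 98.1 and 89.2% in vehicle. The Nlrc5 shares of T or NK-like cells overlapped too, with 8.96 and 4.29% under TAK-981 and 8.65 and 13.5% in vehicle. Nlrc5 was found in 0 and 0.105% of epithelial-like cells under TAK-981, against 0 and 0.0493% in vehicle, which is below the Lyz2 shares, and no difference is read from it. A count of 0 there allows up to 0.386% of cells with a Nlrc5 UMI at that depth in TAK-981 1 and 0.307% in vehicle 1, by the floor of 3 counts, and sets no limit on cells that make Nlrc5.

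**Figure D5:**
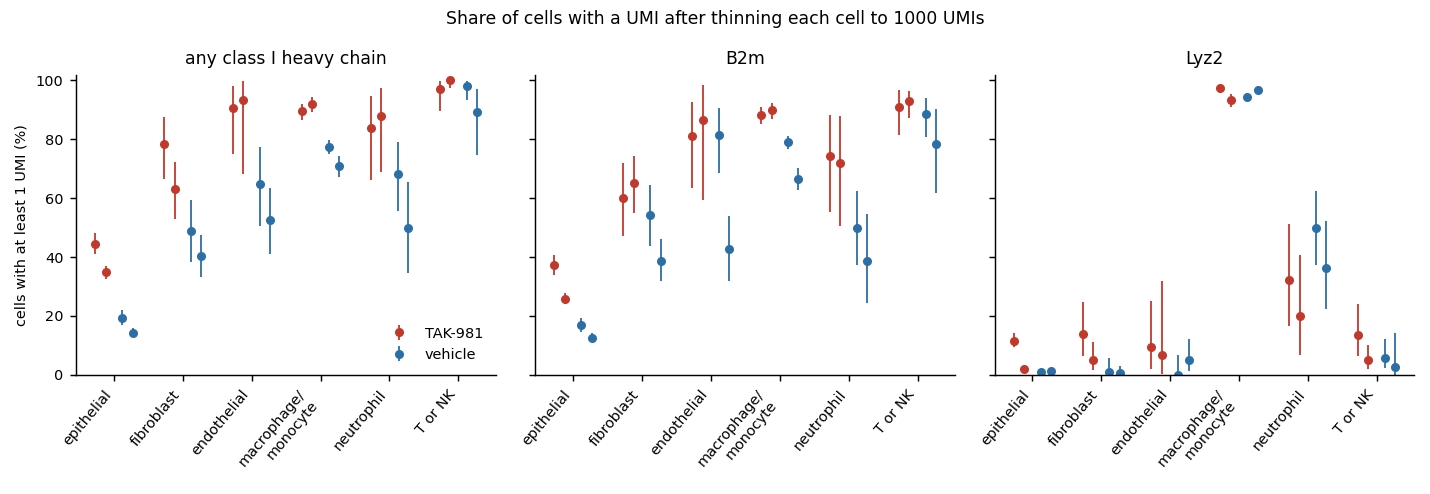
Share of cells with at least 1 UMI after thinning to 1000 UMIs per cell, for any class I heavy chain, B2m and Lyz2. Lyz2 is a macrophage gene, read as a measure of free RNA in epithelial-like cells only. Points are libraries (2 TAK-981 in red, left, and 2 vehicle in blue) and bars Clopper-Pearson 95% intervals, which cover counting error only. In epithelial-like cells the heavy chain share is 44.5 and 34.8% under TAK-981, against 19.4 and 14.2% in vehicle.

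The members' levels ran together over the 24 class and library sums to different degrees. On log2(CPM + 1), Pearson's r with H2-K1 was 0.96 for B2m, 0.92 for H2-D1, 0.91 for H2-Q7, 0.75 for Nlrc5, 0.68 for H2-T23 and 0.48 for H2-M3. The sums share 4 libraries and 6 classes, so these correlations describe class and library differences together. Among 10588 genes, those most like H2-K1 included Psmb8 (0.97), an immunoproteasome subunit, Psmb9 (0.95), another, Sp100 (0.92) and Dtx3l (0.91). Those most like B2m were Psmb8 (0.96), Gbp7 (0.93), Sp100 (0.93), Ifi47 (0.93) and Dtx3l (0.92). Those most like Nlrc5 were Trim21 (0.91), Xlr4b (0.89), Ppp4r3a (0.89), Psme1 (0.85) and Zfhx2 (0.85).

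The partners of the class I pathway were read from 4 lists, and edgeR called none of their genes in any class in either direction. Of 13 genes of peptide supply and loading, 11 had positive fold changes in epithelial-like cells, with a median of 0.43 and 6 at an unadjusted p below 0.05. In macrophage or monocyte-like cells 11 of 13 were positive (median 0.61, 6 at that p), in endothelial-like cells 12 of 12 (0.82, 5), in fibroblast-like cells 11 of 13 (0.49, 4) and in T or NK-like cells 8 of 13 (0.42, 3). Among all genes, those higher at that p were 10.4% in epithelial-like and 5.58% in macrophage or monocyte-like cells. They were 7.86% in endothelial-like, 3.97% in fibroblast-like and 6.06% in T or NK-like cells. Psmb8 had 30.5 and 11.1 CPM in epithelial-like cells under TAK-981, against 3.63 and 1.25 CPM in vehicle (3.12 ± 0.68 SE, edgeR adjusted p = 0.0754). Tap1, a subunit of the peptide transporter, had 11.1 and 5.63 CPM there under TAK-981, against 2.96 and 1.80 CPM in vehicle (1.82 ± 0.47 SE, edgeR adjusted p = 0.106). Tapbp, or tapasin, which bridges the transporter and the heavy chain, overlapped between the groups there, with 74.5 and 39.7 CPM under TAK-981 and 51.1 and 48.6 CPM in vehicle.

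Transactivators of class I promoters had a median of 0.23 over 14 genes in epithelial-like cells, with 2 at an unadjusted p below 0.05, and of -0.04 over 14 genes in macrophage or monocyte-like cells, with 0 higher and 1 lower. At that p 10.4% of all genes were higher in epithelial-like cells, and in macrophage or monocyte-like cells 5.58% were higher and 8.04% lower. Irf8, an interferon regulatory factor, had 5.30 and 6.27 CPM in epithelial-like cells under TAK-981, against 0.761 and 0.164 CPM in vehicle (3.74 ± 0.69 SE, edgeR adjusted p = 0.0561). Macrophage or monocyte-like cells had Irf8 at 266 and 201 CPM under TAK-981, against 169.8 and 183 CPM in vehicle. Rfx5, the DNA-binding partner of NLRC5, had 2.62 and 2.99 CPM in epithelial-like cells under TAK-981, against 3.55 and 3.11 CPM in vehicle. Of the receptors that bind class I, in T or NK-like cells Cd8a had 234 and 167 CPM under TAK-981, against 40.8 and 36.0 CPM in vehicle (2.34 ± 0.45 SE, edgeR adjusted p = 0.0538). Its partner Cd8b1 overlapped, with 133 and 131 CPM under TAK-981 and 152 and 96.1 CPM in vehicle. Class sums do not separate more CD8 cells from more Cd8a RNA per cell, and which of these Cd8a followed was not tested. Of 11 other class I genes in the matrices, 6 could be tested in epithelial-like cells, where 6 of 6 fold changes were positive with a median of 0.88. An unadjusted p below 0.05 was found for 1 of the 6, against 10.4% of all genes higher at that p.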

How the data were processed

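The authors deposited counts of unique molecular identifiers (UMIs) per gene and cell barcode, 1 matrix per library, made with Cell Ranger 6.1.2 on mm10 per the submitters' processing notes from 10x 3′ v3.1 libraries (chemistry per the labels' protocols). Columns not used numbered 0. The genes and lists were chosen with earlier results of these data known, and all 10 genes are named in every class. For each of H2-K1, B2m and Nlrc5, genes were also named by the highest correlation of their levels over class and library sums, and 1 such gene is not reported here.

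Barcodes under 500 UMIs, under 250 genes or over 20% mitochondrial UMIs were dropped, and the top Scrublet scores were removed at 0.8% per 1000 cells (41 and 81 barcodes in TAK-981 libraries, 168 and 146 in vehicle). Cells were scaled to 10000 counts and clustered with scanpy 1.11.5 (Python 3.11.15; 2000 variable genes without the 10 members, 30 components, 15 neighbours, Leiden resolution 1.0, seed 0). Clusters were named from marker lists, with at least 3 markers each in at least 10% of the cells, and otherwise left unnamed. A cluster was also left unnamed if its leading genes held more markers of another list. The same held for few UMIs with no marker among the leading genes. An unnamed cluster led by Hspa1a (25 and 160 cells under TAK-981, 128 and 106 in vehicle) had 8 macrophage markers detected. Another led by Hcar2 (8 and 74 cells under TAK-981, 214 and 78 in vehicle) had 7 neutrophil markers detected. Neither is part of a class. No protein was measured, so names rest on RNA.

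The counts of each class were summed by library and fitted with edgeR 4.0.16 (R 4.3.3, limma 3.58.1), with low counts filtered and TMM scaling. Adjustment was by Benjamini-Hochberg over all genes of a class. TMM factors moved with treatment in epithelial-like cells, and changes are relative to the bulk of genes. DESeq2 1.42.0, other scalings, filters, cell limits, left-out libraries and subsets of cells were alternatives. The script was tested on simulated data. Shares of cells have exact (Clopper-Pearson) 95% intervals, which like the floor of 3 counts cover counting error only. Total UMIs per library were 26376608 and 63898758 under TAK-981 and 24411656 and 29041348 in vehicle. RefSeq promoter windows (GRCm38.p6) and the GENCODE annotation share the build of the files. The labels name no batch.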

Additional observations from a re-analysis of the deposited data

How the results depend on the processing

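Of 864 alternative values of single members, 732 kept direction and side of the threshold, 108 passed it, 13 missed it and 11 changed sign. Leaving out 1 library moved H2-Q6 between -0.79 and 0.92 and B2m between -0.016 and 0.51 in T or NK-like cells (both lowest without TAK-981 2), B2m between -0.090 (without vehicle 2) and 1.35 in neutrophil-like cells, and Nlrc5 between -0.71 and 0.59 in epithelial-like cells. The other changed signs were H2-T23 (-0.31) and B2m (-0.20) in the replication histone cluster. Nlrc5 in epithelial-like cells was positive without TMM (0.46), TAK-981 2 (0.43) or vehicle 1 (0.59), without doublet removal (0.093), with members kept for clustering (0.0034) and without the Epcam-led cluster (0.16). The causes were not tested.

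Members called higher numbered 1 in endothelial-like, 0 in epithelial-like, 1 in fibroblast-like, 0 in macrophage or monocyte-like, 0 in neutrophil-like and 0 in T or NK-like cells, the last under every alternative run. With DESeq2 they numbered 3, 6, 4 and 6 in the first 4 of these classes, where it called 0.827, 4.27, 0.529 and 0.412% of all genes higher. Without TMM they numbered 3 in endothelial-like, 5 in epithelial-like and 1 in neutrophil-like cells (1.28, 9.95 and 0.901% of all genes). Without the filter they were 6, 7, 7, 8 and 2 in the first 5 classes (1.33, 5.45, 1.03, 1.67 and 0.317% of all genes). With sums thinned to equal totals they were 3 in endothelial-like, 1 in epithelial-like and 2 in macrophage or monocyte-like cells (1.39, 0.753 and 0.16% of all genes). Leaving out 1 library gave 0 to 6 in endothelial-like, 0 to 2 in epithelial-like and 0 to 3 in fibroblast-like cells, where 1.34 to 4.68, 0 to 1.84 and 0 to 0.62% of all genes were called higher. Endothelial-like cells had 2 at 1000 UMIs, 0 without doublet removal and 0 without transcripts under 800 nt. Fibroblast-like cells had 2 at a limit of 10% mitochondrial UMIs, and neutrophil-like cells 2 without doublet removal. Epithelial-like cells had 1 each without macrophage or neutrophil marker UMIs and without the mitochondrial, Alb-led or Epcam-led cluster, the last 3 chosen after the data were seen.

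Library totals without TMM shifted the median of all genes by 0.52 in epithelial-like cells, with 1269 higher and 201 lower calls, against 62 and 203 with TMM. The shift was 0.31 in T or NK-like cells and 0.09 to 0.25 in the other 4 classes. The heavy chain share differed by 32.9 points at 2000 UMIs and by 15.3 points without thinning. At a limit of 10% mitochondrial UMIs the endothelial-like class had 14 cells in TAK-981 2 and gave no value.

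Same-numbered libraries did not deviate together (correlations -0.21 to -0.04). With 2 libraries per group this cannot show whether the numbers pair the mice, and the labels do not say. A replicate block gave 0 members called in endothelial-like, 3 in epithelial-like and 0 in fibroblast-like cells (0.427, 1.11 and 0.278% of all genes). The crossed pairing, chosen after the data were seen, gave 5 in endothelial-like, 6 in fibroblast-like, 7 in macrophage or monocyte-like and 2 in neutrophil-like cells (1.67, 0.713, 1.24 and 2.92% of all genes).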

Other observations

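Levels of class I genes in some further clusters are given as values, chosen after these were seen and without a test (CPM by library totals). The Epcam-led epithelial cluster had 7 and 14 cells under TAK-981 and 7 and 0 in vehicle. H2-K1 was at 2518 and 1635 CPM in it under TAK-981, against 1327 CPM in vehicle 1, while the other epithelial clusters ran from 12.2 to 303 CPM over all libraries. B2m there was at 1651 and 1421 CPM under TAK-981, against 2146 CPM in vehicle 1.

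A macrophage or monocyte cluster led by Ifit1bl1, Ly6c2 and Ifit2, of which the Ifit genes are interferon-induced, had 22 and 94 cells under TAK-981 and 20 and 1 in vehicle. H2-K1 was at 3167 and 3151 CPM in it under TAK-981, against 1111 CPM in vehicle 1, and B2m at 5152 and 5289 CPM under TAK-981, against 4060 CPM in vehicle 1. Nlrc5 was at 47.5 and 48.5 CPM under TAK-981, against 40.4 CPM in vehicle 1. In the larger cluster led by Fcrls, C1qc and C1qa, Nlrc5 was at 12.7 and 11.4 CPM under TAK-981, against 7.34 and 2.31 CPM in vehicle.

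An unnamed cluster led by Ccl22, Ccl17 and Ccr7, with 32 and 28 cells under TAK-981 and 239 and 35 in vehicle, had H2-K1 at 1258 and 1526 CPM under TAK-981, against 741 and 732 CPM in vehicle. B-like cells numbered 430 in vehicle 1 and 3 to 14 in the other libraries, and their H2-K1 level was 789.5 CPM in vehicle 1.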
